A study of Mus musculus with 6 samples.

Results

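The antisense transcripts described here were 320 rows of the table of linear transcripts, which holds 175010 rows in all. They were chosen by one property, the class code x. By convention a transcript assembler's comparison tool gives this code to an assembled transcript whose exons overlap exons of an annotated gene on the opposite strand. Each of the 320 overlapped at least 1 annotated row on the opposite strand by its span, 911 such rows in all, and the assembler grouped them into 285 loci. Whether exon meets exon was not checked, because exon positions are not in the tables used here. No expression value entered the choice.

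RNA was measured in the prefrontal cortex of male C57BL/6 mice. The PS_high group (n = 3 samples) received polystyrene nanoparticles (PS NPs) by gavage each day at 50 mg/kg body weight for 6 months. The control group (n = 3 samples) received water, labelled as 0 mg/kg. Gavage began in mice of 5 weeks, tissue was taken at 30 weeks of age, and no transgene or other treatment is labelled. The labels list separate samples without stating that each came from 1 animal, so the p-values measure the spread between these samples.

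Natural antisense transcripts are RNAs made from the strand opposite to a gene. Some start beside a gene's promoter and run away from it, others cover a gene's end or lie wholly within it. They are known from imprinted regions, where a long antisense RNA can silence the gene it crosses, and from many neuronal genes. In total RNA libraries with ribosomal RNA removed, as here, transcripts without a poly(A) tail are also sequenced. The library kit keeps strand. The sources used here do not give whether the counting used strand, so where exons overlap, reads of an antisense transcript and of its sense partner cannot be told apart.

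The sequences that follow show what a divergent start looks like, in which the antisense transcript begins at a gene's promoter and runs away from it. Of the 264 opposite-strand genes used as names, 149 had a promoter window in RefSeq (GRCm38.p6, from 250 bases before to 50 bases after the gene's start). The lines give the windows of Pkd2, a cation channel of cilia, Trim39, a ubiquitin ligase, and Tbcd, a folding factor of tubulin. They are examples of windows that hold the 5′ end of an antisense transcript. A window of Vwa5b2 and further windows of Trim39 did so too. Each reads 5′ to 3′ on the strand of the gene, and the capitals mark the bases that the span of the antisense transcript covers on the other strand.
Pkd2, chr5:104459207-104459506, plus strand: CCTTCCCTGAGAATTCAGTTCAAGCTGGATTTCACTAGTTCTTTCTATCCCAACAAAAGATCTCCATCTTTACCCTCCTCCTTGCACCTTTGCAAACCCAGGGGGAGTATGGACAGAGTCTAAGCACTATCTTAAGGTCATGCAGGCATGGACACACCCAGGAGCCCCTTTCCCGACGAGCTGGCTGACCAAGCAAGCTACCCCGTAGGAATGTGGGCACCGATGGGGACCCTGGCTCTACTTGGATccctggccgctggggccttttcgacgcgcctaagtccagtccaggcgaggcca
Trim39, chr17:36271384-36271683, minus strand: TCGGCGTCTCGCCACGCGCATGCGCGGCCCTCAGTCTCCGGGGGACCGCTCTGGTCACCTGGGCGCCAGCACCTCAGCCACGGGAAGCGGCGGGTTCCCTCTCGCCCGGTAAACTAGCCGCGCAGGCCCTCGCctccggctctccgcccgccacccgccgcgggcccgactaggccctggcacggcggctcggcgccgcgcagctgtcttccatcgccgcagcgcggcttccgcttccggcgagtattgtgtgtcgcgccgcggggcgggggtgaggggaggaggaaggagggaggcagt
Tbcd, chr11:121451741-121452040, plus strand: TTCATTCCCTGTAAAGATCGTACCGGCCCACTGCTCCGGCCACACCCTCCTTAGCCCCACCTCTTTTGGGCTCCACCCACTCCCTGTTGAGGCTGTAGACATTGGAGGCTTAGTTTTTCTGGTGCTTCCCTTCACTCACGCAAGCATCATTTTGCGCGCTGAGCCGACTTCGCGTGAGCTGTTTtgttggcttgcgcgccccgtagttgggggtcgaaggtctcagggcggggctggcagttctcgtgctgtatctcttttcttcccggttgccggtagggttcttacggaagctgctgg

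The antisense transcript MSTRG.30462.1 began 4 bases before the RefSeq start of Pkd2 and covered 247 of the 300 bases. MSTRG.17100.1 began 118 bases before the start of Trim39, and MSTRG.7673.1 began 67 bases before that of Tbcd. The dinucleotide CG, which is common in promoters of broadly expressed genes, occurred 9 times in the window of Pkd2, 43 times in that of Trim39 and 18 times in that of Tbcd. The median over all 32851 windows of the table was 7. As many or more were held by 45.8% of the windows for Pkd2, 2.61% for Trim39 and 29.7% for Tbcd. In a further window of Trim39, which holds the 5′ end of MSTRG.17100.4, CG occurred 8 times, and 48.6% of the windows held as many or more.

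A second set of sequences belongs to small RNAs that lie opposite an antisense transcript. MSTRG.42136.1 on chromosome X, 22525 bases long in 2 exons, ran over Gm14636 and over the genes of 2 microRNAs, Mir221 and Mir222. The mature strands share a seed, the bases 2 to 8 that pair with targets, which the capitals mark.
mmu-miR-221-3p: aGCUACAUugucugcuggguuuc
mmu-miR-222-3p: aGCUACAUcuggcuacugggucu

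MSTRG.42136.1 had estimated counts of 9109, 6557 and 8642 in PS_high libraries, against 13417, 10195 and 7050 in control libraries. The groups overlapped, and the log2 fold change was -0.21 (SE 0.27). The Mir221 row had 11, 13 and 19 counts in PS_high libraries, against 28, 15 and 15 in control libraries.

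Most antisense transcripts lay inside the gene they opposed. Measured against the gene on the other strand, 199 were inside it, 45 covered all of it, 44 covered its start and 32 covered its end. The opposite annotated row was protein coding for 173, itself annotated as antisense for 30, a small nucleolar RNA (snoRNA) for 28 and a long intergenic non-coding RNA for 22. Of the 320, 123 had 1 exon, 162 had 2 and 35 had 3 or more. The spliced length had a median of 1314.5 bases (range 203 to 30244), and the genomic span a median of 4984 bases (range 203 to 441057). In 144 cases the antisense transcript also lay inside an annotated row of its own strand.

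Strand was a condition of the choice for unspliced transcripts as well. All 123 members with 1 exon carried a strand, which the class code requires, and how the assembler set it was not tested. Among assembled rows with 1 exon inside introns, between genes or near genes, 13971 of 17387 (80.4%) carried none, and a row without strand cannot be called antisense.

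The contact with the opposite gene was small for some. It was at most 10 bases for 9 members and at most 200 bases for 47. Klhl11, which encodes a kelch family adaptor, and its antisense transcript MSTRG.7072.1 overlapped by 2 bases at their ends. Syn3, a synapsin of synaptic vesicles, and Pkd2 each shared 4 bases with their antisense transcript.

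**Figure D1:**
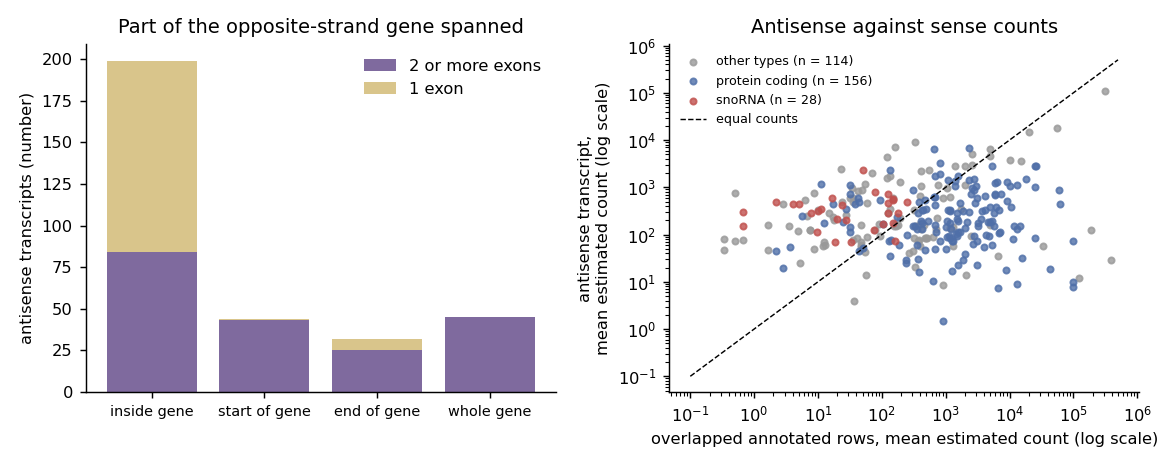
Left, number of antisense transcripts (y axis) by the part of the opposite-strand gene they span, divided by number of exons; 199 lie inside the gene. Right, mean estimated count over 6 libraries of each antisense transcript (y axis, log scale) against that of the annotated rows it overlaps (x axis, log scale) for the 298 pairs with reads on both strands; snoRNA pairs (red) lie mostly above the dashed line of equal counts, protein-coding pairs (blue) mostly below it.

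The antisense transcripts were expressed at a level like that of other assembled transcripts. Their median was 2.26 FPKM (fragments per kilobase, scaled to library size, with quartiles 1.56 and 3.41). It was 1.93 FPKM for splice variants of known genes (class code j), 1.79 FPKM for transcripts inside introns and 0.0597 FPKM for annotated rows, most of which are isoforms with few reads. A row had to gather reads to be assembled at all, so the annotated rows are not a like group. Reads were found in all 6 libraries for 272 of the 320 members, and 5 members had no reads in any. Members with 1 exon had a median of 2.42 FPKM, and those with several exons 2.13 FPKM.

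Levels on the 2 strands were compared as counts of each antisense transcript over counts of the annotated rows it overlapped. Among the 298 pairs with reads on both, the median ratio was 0.541 (quartiles 0.0874 and 4.76). The antisense transcript had more counts in 126 pairs, in 91 of them in every library. Assembled rows of the sense strand were not among the sense counts, so these ratios can be too high. In PS_high 1 the annotated rows of Ubb had 21 counts and all its sense rows 3916. For Nefm both were 1334. For protein-coding partners the median ratio was 0.138 and the antisense transcript was ahead in 31 of 156 pairs. For snoRNA partners, which are very short, it was 8.77 and the antisense transcript was ahead in 27 of 28. Of these 28, 26 lay in 1 cluster on chromosome 7, described below, whose members overlap and share reads. Per length, the antisense FPKM was above the sense FPKM in 119 of the 298 pairs. Across these pairs the Spearman correlation of the 2 FPKM values was 0.0777, as a description, since the points share libraries and some share a gene.

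The 4 highest ratios were found opposite annotated rows with almost no reads. MSTRG.13649.1, opposite Gm49356, had 778, 660 and 718 counts in PS_high libraries, against 928, 717 and 733 in control libraries, while the annotated rows it overlapped had 0 or 1. It also lay inside Tatdn1 of its own strand. MSTRG.12563.1 lay inside Rb1, which encodes the retinoblastoma protein, a brake on the cell cycle. It had 177, 71 and 0 counts in PS_high libraries, against 128, 1 and 108 in control libraries. In each group 1 library had 1 count or fewer. The ratio was taken against 1 annotated row of Rb1, which had 0 or 1 counts, and does not describe the whole gene. The sum of all annotated Rb1 rows averaged 87.8 ± 75.9 CPM in PS_high and 88.8 ± 72.8 in control (SD, n = 3 each). These CPM are counts scaled to depth with TMM factors. MSTRG.12563.1 also lay inside Rcbtb2 of its own strand. The other two, MSTRG.35606.3 and MSTRG.35606.4, lay opposite the snoRNA gene Gm25452.

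The largest group of antisense transcripts lay in an imprinted region. Chromosome 7 held 51 of the 320, and 30 of these, in 15 loci, lay on the plus strand between positions 59355246 and 59613872. They ran opposite Snhg14, the long RNA of the minus strand that hosts tandem snoRNA genes and is known for silencing the paternal copy of Ube3a in neurons. The cluster began 43710 bases beyond the annotated end of Ube3a, on the same strand as that gene. The opposite row was a snoRNA for 26 of the 30 and Snhg14 for 4. Spliced lengths were similar, 23 of the 30 between 1300 and 1800 bases, while spans ran between 2421 and 151202 bases. For 11 antisense transcripts the 5′ end lay within 15 bases inside the start of a snoRNA. Most of these were isoforms of a single locus, MSTRG.35501.

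The summed antisense counts of the cluster were 217, 190 and 183 CPM (counts scaled to the summed linear counts of the library) in PS_high libraries, against 164, 215 and 151 in control libraries. Snhg14 had 135, 107 and 113 CPM in PS_high libraries, against 125, 123 and 98.1 in control libraries. The groups overlapped for both. Ube3a, a ubiquitin ligase, averaged 140 ± 50 CPM in PS_high libraries and 155 ± 16 CPM in control libraries (SD, n = 3 each). The highest member was MSTRG.35498.1, at a mean of 16.9 FPKM, with 2805, 1809 and 1792 counts in PS_high libraries, against 1941, 2635 and 1996 in control libraries.

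Of the 29 cluster members that were tested, 21 had a log2 fold change above 0, with a median of 0.14, against -0.007 over all rows tested. In edgeR 0 had an unadjusted p under 0.05, against 3.58% of all rows tested. In 3 members, opposite the snoRNA genes Gm25121, Gm26336 and Gm22252, every PS_high library was above every control library, and in 0 members below, against 3.85% above and 4.31% below over all rows tested. MSTRG.35501.4, opposite Gm25121, had 946, 779 and 694 counts in PS_high libraries, against 558, 531 and 749 in control libraries, and its groups separated only after scaling to depth (log2 fold change 0.54, SE 0.25). The members overlap each other and share reads, so they are not independent. Back-splice reads, which mark circular RNAs, were 877 from 160 circular RNAs on the Snhg14 strand of the region, and no circular RNA was listed on the antisense strand.

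The summed level of all antisense transcripts differed between libraries mostly through a few of them. It was 7708, 3629 and 6397 CPM in PS_high libraries, against 3645, 7657 and 3178 in control libraries. Both groups held high and low libraries, 5911 ± 2082 CPM in PS_high and 4827 ± 2462 CPM in control (SD, n = 3 each). Without the 3 members of highest mean FPKM the values were 3362, 3226 and 2911 CPM in PS_high libraries, against 3644, 3287 and 3176 in control libraries. All libraries then lay within a narrow range, with overlapping groups.

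The antisense share was taken as the antisense counts over the sum of antisense and overlapped sense counts. Sense counts were those of annotated rows only, so the share can be too high. It was 19.4%, 10.4% and 17.3% in PS_high libraries, against 9.30%, 21.3% and 10.9% in control libraries. Without the 3 members it was 12.5%, 11.4% and 11.1% in PS_high libraries, against 10.6%, 12.1% and 13.9% in control libraries. Library depth was 53344395 to 63466209 summed linear counts in PS_high and 61842978 to 66004386 in control.

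**Figure D2:**
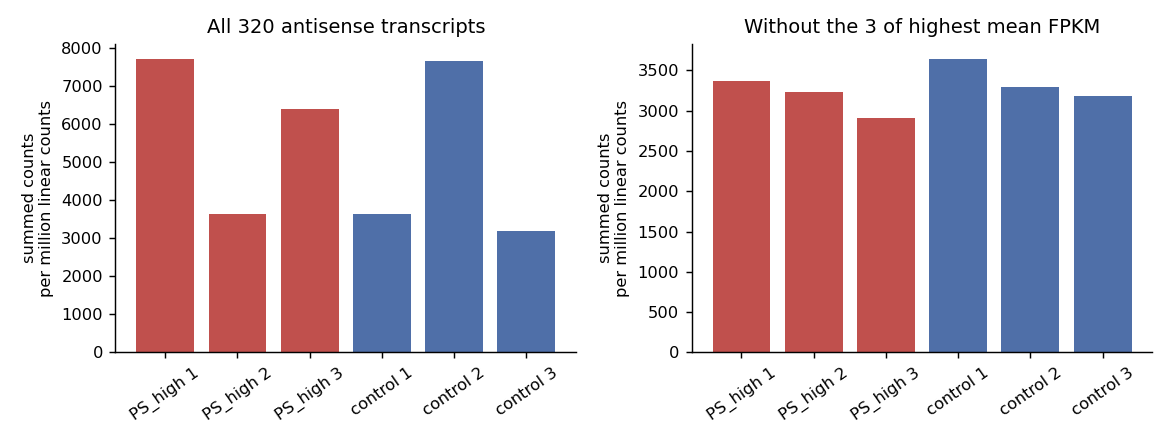
Summed antisense counts in CPM (y axis) in each library (x axis), PS_high in red and control in blue, for all 320 (left) and without the 3 of highest mean FPKM (right). On the left 2 PS_high libraries and 1 control library stand above the rest; on the right the libraries lie between 2911 and 3644.

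The 3 members of highest mean FPKM lay across small nuclear RNA (snRNA) genes, whose products form the spliceosome and occur in many near-identical copies. MSTRG.1046.1 on chromosome 1, opposite D230017M19Rik and the snRNA genes Gm23472, Gm24497 and Gm25939, had 275769, 103 and 214122 counts in PS_high libraries, against 91, 164074 and 81 in control libraries. Thus 3 libraries were above 100000 and the other three near 100, across both groups (log2 fold change 1.61, SE 3.13). On the opposite strand Gm24497 had 194649, 106709 and 163929 counts in PS_high libraries, against 97079, 103381 and 103994 in control libraries. That snRNA was highest in PS_high 1 and PS_high 3, and in control 2, the third library with antisense counts, it was no higher than in control 3. Gm25939 was also highest in PS_high 1 and PS_high 3, with 270325 and 200783 counts. Gm23472 went another way, with 1045, 14439 and 3977 counts in PS_high libraries, against 3310, 11372 and 12183 in control libraries, and was lowest in PS_high 1.

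MSTRG.18031.1, opposite Rock1, which encodes a kinase of the actin cytoskeleton, and opposite the snRNA gene Gm26244, had 6, 6 and 0 counts in PS_high libraries, against 11, 106166 and 12 in control libraries. 1 control library held nearly all of its counts. Gm26244 itself had 64601, 7661 and 46319 counts in PS_high libraries, against 82012, 135 and 123767 in control libraries. The library with the antisense counts was the one in which the snRNA was lowest. Rock1 had 2294, 2025 and 2312 counts in its annotated rows in PS_high libraries, against 3097, 2186 and 2924 in control libraries.

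MSTRG.6816.1, opposite the U1 snRNA gene Rnu1a1 and the snRNA gene Gm22068, had 0, 21393 and 0 counts in PS_high libraries, against 0, 0 and 0 in control libraries. Gm22068 had 3621, 35652 and 31975 counts in PS_high libraries, against 4623, 6849 and 1328 in control libraries. The library with the antisense counts was also that with the highest Gm22068 count. Reads of such repeated genes can be placed at several copies, and how the submitters placed them was not tested.

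Counts confined to some libraries were seen in other members too. A member was called uneven where its highest library had at least 100 counts and its lowest at most 1/20 of that. Of the tested members with at least 100 counts in a library, 30 of 263 (11.4%) were uneven, against 12569 of 52881 (23.8%) of all tested rows. Variation within groups is given as the median coefficient of variation. It was 25.1% within PS_high and 22.8% within control for the 299 tested members, 37.1% within PS_high and 32.4% within control for all tested rows, and 55.7% within PS_high and 48.4% within control for splice variants.

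Members seen in 1 library were mostly short and spliced. With at least 10 counts in exactly 1 library, there were 19 members. Among 26 spliced members under 300 bases there were 12 (46.2%), and among the other 294 there were 7 (2.38%). They included 1 each opposite Malat1, an abundant nuclear long RNA, Cplx1, a regulator of synaptic vesicle fusion, and Dynll2, a dynein light chain. The antisense transcript of Malat1 had 1, 0 and 0 counts in PS_high libraries, against 0, 171 and 0 in control libraries. In these libraries annotated rows of Malat1 had 3156 to 882063 counts. Assembled rows of Malat1 were not counted, so this range need not be that of the gene. In 5 members the library was a PS_high one and in 14 a control one, 8 of them control 3.

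**Figure D3:**
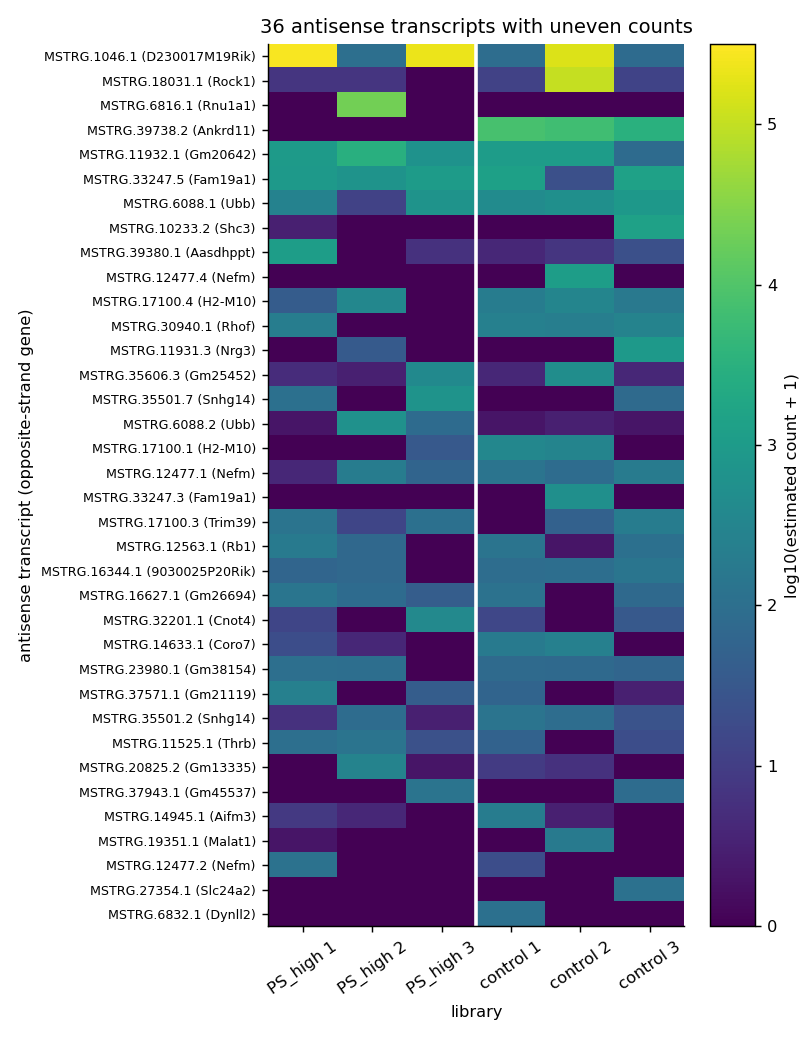
log10(estimated count + 1), as colour, of 36 antisense transcripts with uneven counts (rows, named with the opposite-strand gene) in each library (columns, PS_high left of the white line, control right). Most rows are bright in libraries of both groups or in a single library; MSTRG.39738.2 (Ankrd11) is at 0 in all PS_high libraries.

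The comparison of exposure groups asked which antisense transcripts differed after the PS NP gavage. No antisense transcript passed an adjusted p of 0.05 in the quasi-likelihood test of edgeR. Of the 320, 299 had a mean of at least 0.5 FPKM and were tested, and 0 were called, against 3 of 69333 rows of the table (0.00433%). At an unadjusted p under 0.05 there were 7 members, 2.34% of those tested, against 3.58% of all rows. The smallest adjusted p of a member was 0.255 (edgeR). With DESeq2, 3 members were called, against 1.41% of all rows, and with limma on log2 FPKM 0 were called, against 0.0317% of all rows.

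The fold changes of the members lay close to 0. Their median log2 fold change was -0.0007, with quartiles at -0.24 and 0.18, against a median of -0.007 and quartiles at -0.32 and 0.32 over all rows tested. In 25 members (8.36%) the groups did not overlap after scaling to depth, 9 with PS_high higher and 16 with PS_high lower. Over all rows tested it was 8.16%, with 3.85% higher and 4.31% lower, so the share of the members is near that of the table. In this bulk tissue, fewer cells of a type and less RNA per cell cannot be told apart.

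**Figure D4:**
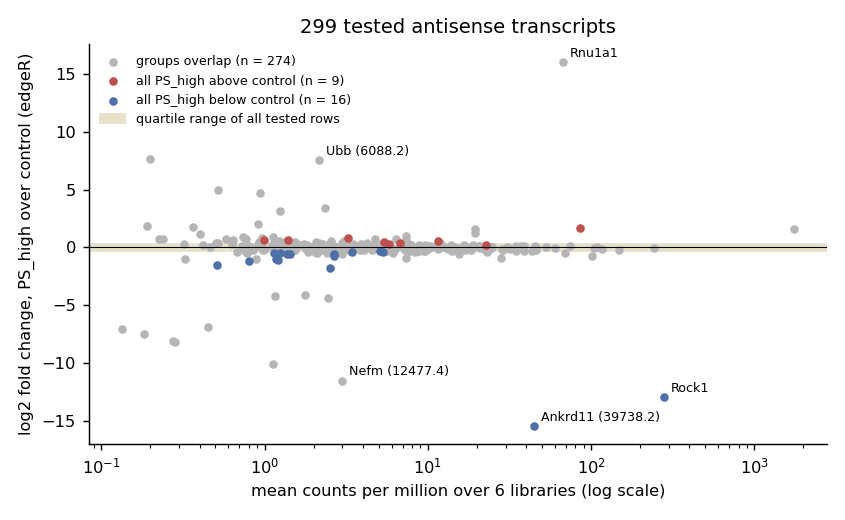
edgeR log2 fold change of PS_high over control (y axis) against mean CPM (x axis, log scale) for the 299 tested antisense transcripts, with those whose groups do not overlap in red (PS_high higher, 9) and blue (PS_high lower, 16). The band spans the quartiles of all tested rows; most members lie in or near it, and among the few far from it are MSTRG.6816.1 and MSTRG.18031.1, with most counts in 1 library.

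The antisense locus opposite Nefm had the lowest p of the 267 antisense loci tested, and it was singled out after its values were seen. Nefm encodes the medium chain of neurofilaments, the intermediate filaments of axons. The locus MSTRG.12477 held 4 antisense transcripts on the plus strand of chromosome 14, positions 68124696 to 68131809, whose 5′ ends lay 14, 62, 126 and 150 bases inside the annotated start of Nefm at 68124846. They ran away from Nefm, so that nearly all of their span lay before its start. The summed estimated counts were 1224, 1250 and 1350 in PS_high libraries, against 3097, 2590 and 3108 in control libraries. Every PS_high library was below every control library.

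Scaled to depth with TMM factors, as are all CPM from here on, the locus averaged 21.8 ± 2.16 CPM in PS_high libraries and 45.1 ± 4.44 CPM in control libraries (SD, n = 3 each). The log2 fold change was -1.05 (SE 0.20), with an unadjusted p = 0.0024 and an adjusted p = 0.776 in edgeR. It thus did not pass the test there, while DESeq2 gave an adjusted p = 2.89e-08 at the same fold change. Over all alternatives the log2 fold change lay between -1.12 and -0.86, and leaving out any 1 library kept it between -1.12 and -0.97.

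The main transcript of the locus was MSTRG.12477.3, 5810 bases long, with 1103, 1046 and 1291 counts in PS_high libraries, against 2947, 1362 and 2918 in control libraries. MSTRG.12477.4 held 1141 counts in control 2 and 0 in the other five libraries. Nefm on the other strand did not pass the test. It had 1334, 1598 and 1610 counts in PS_high libraries, against 1378, 1199 and 2093 in control libraries (log2 fold change 0.12, SE 0.23). Nefl, the gene of the light chain, lies inside the annotated span of Nefm on the strand of the antisense locus. It had 19994, 16718 and 17739 counts in PS_high libraries, against 18570, 15410 and 22159 in control libraries, with overlapping groups.

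The antisense transcripts of Ankrd11, a chromatin regulator needed in neural development, differed between the groups as single rows and overlapped as a locus. MSTRG.39738.2 on chromosome 8 had 29211 bases in 2 exons over a span of 29263 bases. It had 0, 0 and 0 counts in PS_high libraries, against 7816, 6466 and 3122 in control libraries. With a floor of 3 counts over the group it was at least 5277-fold lower in PS_high, a bound for counting error only, with an adjusted p = 0.255 in edgeR and 3.21e-27 in DESeq2. MSTRG.39738.1, the unspliced form of 30244 bases over the same region, had 9689, 7466 and 5767 counts in PS_high libraries, against 690, 2426 and 4848 in control libraries.

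Their sum was 9689, 7466 and 5767 counts in PS_high libraries, against 8506, 8892 and 7970 in control libraries (log2 fold change -0.00, SE 0.22). The unspliced form took 100% of the sum in each PS_high library, against 8.11%, 27.3% and 60.8% in control libraries. The exons of MSTRG.39738.2 filled nearly all of its span, so the forms shared nearly all of their bases. Reads that both forms could hold are divided between them by estimation. Ankrd11 on the opposite strand had a log2 fold change of 0.08 (SE 0.18), and both antisense rows also lay inside Gm20388 of their own strand.

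**Figure D5:**
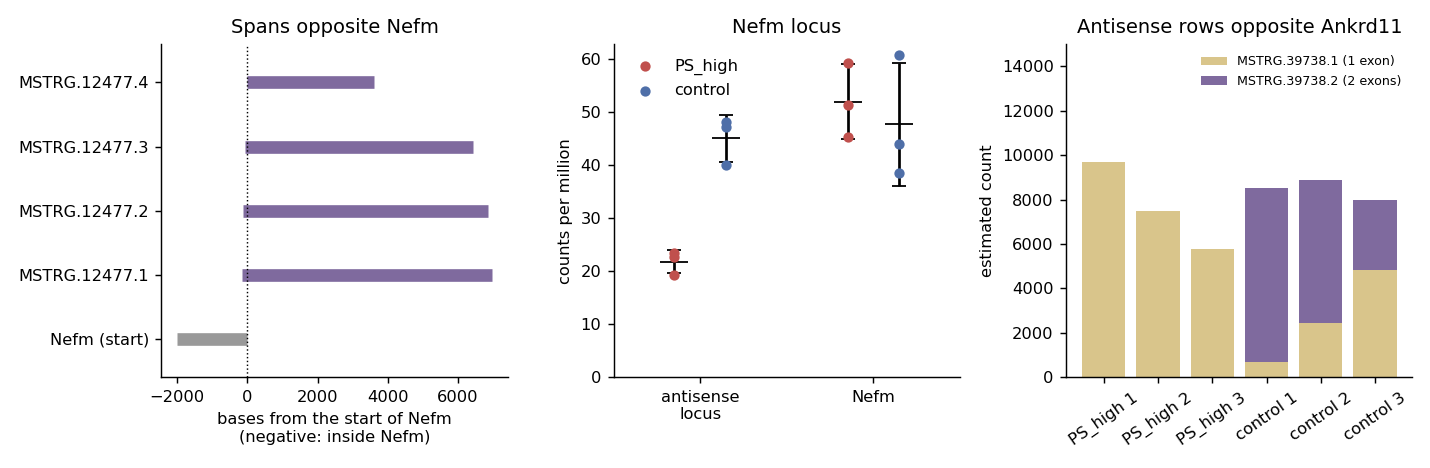
Left, spans of the 4 antisense transcripts opposite Nefm in bases from the start of Nefm (x axis; the grey bar is the first 2000 bases of Nefm). Middle, CPM (y axis) of the summed antisense locus and of Nefm in each library, with mean and SD (n = 3 each), PS_high left of control: the locus averages 21.8 in PS_high and 45.1 in control, and Nefm overlaps. Right, estimated counts (y axis) of the 2 antisense rows opposite Ankrd11 in each library; their division differs between the groups and their sum overlaps.

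Further members with an unadjusted p under 0.05 had low or uneven counts. MSTRG.11783.1, inside Sfmbt1, a Polycomb-related protein, had 37, 19 and 32 counts in PS_high libraries, against 56, 93 and 67 in control libraries. MSTRG.37941.1, inside Stox2, had 91, 59 and 68 counts in PS_high libraries, against 42, 56 and 51 in control libraries. In both the groups did not overlap, with log2 fold changes of -1.18 (SE 0.34) and 0.67 (SE 0.26) and adjusted p-values near 1 in edgeR. MSTRG.11783.1 also lay inside 1700087M22Rik of its own strand.

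MSTRG.6088.2, opposite the ubiquitin gene Ubb, had 1, 609 and 82 counts in PS_high libraries, against 1, 2 and 1 in control libraries. The second antisense row of that locus, MSTRG.6088.1, had 275, 11 and 654 counts in PS_high libraries, against 459, 558 and 857 in control libraries. Only PS_high 2 held more of the first than of the second. DESeq2 called MSTRG.6088.2 higher (log2 fold change 7.69, adjusted p = 0.00103), on 2 of 3 PS_high libraries.

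Further members had groups that did not overlap. Among those with PS_high higher, the log2 fold change was 0.64 inside Dcp1b, which encodes a factor of mRNA decapping, and 0.43 inside Sbf2, which was 0.27 without control 3. Among those with PS_high lower it was -0.71 inside B230307C23Rik and -1.52 at the end of the pseudogene Gm18795. That last transcript, MSTRG.9172.1, had 15, 9 and 23 counts in PS_high libraries, against 93, 26 and 29 in control libraries, and without control 1 its log2 fold change was -0.67. MSTRG.20274.1, inside Gpam, which encodes an enzyme of glycerolipid synthesis, had 69, 60 and 8 counts in PS_high libraries, against 96, 96 and 112 in control libraries. Without PS_high 3, the lowest library, its log2 fold change was -0.51. MSTRG.30940.1, inside the small GTPase gene Rhof, had 218, 0 and 0 counts in PS_high libraries, against 249, 221 and 286 in control libraries. None of these passed the edgeR test. The transcripts inside Dcp1b, B230307C23Rik, Gpam and Rhof also lay inside annotated rows of their own strand. These were rows of Cacna1c, A630089N07Rik, AC110206 and Tmem120b, in that order. Whether the reads belong to those same-strand rows was not tested.

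Most of the abundant members outside the snRNA genes had like counts in all libraries, MSTRG.6088.1 opposite Ubb being an exception. MSTRG.7072.1, at the end of Klhl11 and at a mean of 44.6 FPKM, had 2996, 2306 and 2817 counts in PS_high libraries, against 2997, 2852 and 3014 in control libraries (log2 fold change 0.01, SE 0.16). Klhl11 had 5463, 4445 and 5085 counts in PS_high libraries, against 5521, 4976 and 5894 in control libraries. With 45.8 ± 2.17 CPM in PS_high and 45.6 ± 0.592 CPM in control (SD, n = 3 each), the groups differed by less than the spread between libraries.

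Neuronal genes were among the partners of these even transcripts. MSTRG.11931.2, inside Nrg3, a neuregulin ligand of ErbB4 receptors, had 5311, 3585 and 5009 counts in PS_high libraries, against 5830, 4259 and 3797 in control libraries. MSTRG.26248.1, across Gm42946 and within Negr1, a cell adhesion molecule of neurites, had 14299, 11725 and 15782 counts in PS_high libraries, against 18549, 17207 and 13103 in control libraries. MSTRG.4632.1, within the gene of the vesicle calcium sensor Syt1, had 3160, 2624 and 2489 counts in PS_high libraries, against 3103, 2893 and 2605 in control libraries. Groups overlapped in each of them once scaled to depth. MSTRG.11931.2 also lay inside Gm20642 of its own strand.

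MSTRG.115.1, inside Vxn, had 3457, 2495 and 1885 counts in PS_high libraries, against 3122, 2475 and 3319 in control libraries. MSTRG.15024.1, 4 bases into Gm10241 and inside Yeats2 on its own strand, had 1703, 741 and 834 counts in PS_high libraries, against 930, 969 and 1074 in control libraries. PS_high 3 was the lowest library for MSTRG.115.1, PS_high 1 was the highest for MSTRG.15024.1, and groups overlapped in both. MSTRG.115.1 also lay inside 2610203C22Rik of its own strand.

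The longest member by span was MSTRG.35240.1, which covered 441057 bases with 8 exons across the pseudogene Gm18129. It had 708, 385 and 731 counts in PS_high libraries, against 538, 630 and 577 in control libraries. It was also the antisense transcript with the most back-splice reads on its own strand, 29, of 5 members that had any. Next in span were MSTRG.23980.1, opposite Gm38154, with 0 counts in PS_high 3 and 61 to 103 in the other libraries, and MSTRG.37571.1, opposite Gm21119, which at 0.153 FPKM was not tested.

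Starts that face a gene's start were found opposite 18 genes. The 5′ end of 30 members lay within 500 bases inside an annotated start on the opposite strand, and for 11 of the 30 the named opposite row was protein coding. Their median was 2.22 FPKM, close to that of all members. MSTRG.30462.1 at Pkd2, whose promoter is printed above, had 1597, 1225 and 1480 counts in PS_high libraries, against 1352, 1288 and 1477 in control libraries. Scaled to depth these were 24.3 ± 1.07 CPM in PS_high and 21.2 ± 1.19 CPM in control (SD, n = 3 each), groups that did not overlap, with a log2 fold change of 0.20 (SE 0.18) that did not pass the edgeR test. MSTRG.17100.1 at Trim39 had 0, 0 and 33 counts in PS_high libraries, against 342, 303 and 0 in control libraries, so that 1 PS_high library and 2 control libraries held its counts. MSTRG.7673.1 beside Tbcd, which also spans the end of Fn3k, had 69, 64 and 35 counts in PS_high libraries, against 74, 46 and 76 in control libraries.

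Antisense loci, as sums of their transcripts, were tested in the same way. Of 267 tested loci edgeR called 0, against 0.00433% of all rows. An unadjusted p under 0.05 was found for 5 loci (1.87%), against 3.61% of all rows. DESeq2 called 2, the one opposite Nefm among them, against 1.41% of all rows. Groups did not overlap in 24 loci (8.99%), 8 higher and 16 lower in PS_high, against 8.15% of all rows (3.95% higher and 4.20% lower).

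The sense genes were tested as sums of annotated rows. Of 19759 genes 341 were overlapped by an antisense transcript and tested, and edgeR called 0 of them, against 0% of all genes. An unadjusted p under 0.05 was found for 14 (4.11%), against 3.51% of all genes. DESeq2 called 3, against 0.450% of all genes. Among them were Dlg2, higher in PS_high, and 2010300C02Rik, lower in PS_high, both by annotated rows only. The annotated rows of 2010300C02Rik had 136, 39 and 96 counts in PS_high libraries, against 2085, 83 and 1524 in control libraries. All its sense rows, assembled ones included, had 9373, 11462 and 10463 counts in PS_high libraries, against 9624, 12977 and 7512 in control libraries, with overlapping groups. Groups did not overlap in 24 of the 341 (7.04%), 15 higher and 9 lower in PS_high, against 7.44% of all genes (3.50% higher and 3.94% lower).

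Dlg2 encodes a scaffold of the postsynaptic density. Its annotated rows had 27803, 24678 and 28001 counts in PS_high libraries, against 13399, 14623 and 19358 in control libraries (log2 fold change 0.92, SE 0.15, adjusted p = 0.654 in edgeR). All sense rows of Dlg2, assembled ones included, had 176014, 114172 and 138374 counts in PS_high libraries, against 198182, 133152 and 140782 in control libraries, so the difference was in the annotated rows and not in the sum. Its antisense partner MSTRG.36106.1, which is also opposite Gm45159, had 4460, 2876 and 3158 counts in PS_high libraries, against 5035, 3195 and 3721 in control libraries, with overlapping groups once scaled to depth.

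Antisense transcripts were counted against lists of genes with known roles. They overlapped 3 of 20 genes of synaptic vesicles and release (Syt1 and Cplx1 among them), 1 of 24 of the postsynaptic density (Dlg2), 1 of 17 ion channels (Cacna1c, a calcium channel), 1 of 18 of the cytoskeleton (Nefm), 1 of 19 RNA binding or splicing genes (Malat1) and 1 of 99 ribosomal proteins (Rps28). They overlapped 0 of 13 amyloid and neurodegeneration genes, 0 of 12 immediate early genes, 0 of 8 myelin genes and 0 of 11 genes of mitochondrial respiration. Over all genes tested it was 341 of 19759 (1.73%). MSTRG.33591.4, inside Cacna1c, had 454, 275 and 242 counts in PS_high libraries, against 330, 408 and 339 in control libraries. MSTRG.16971.1, inside Rps28, had 81, 131 and 128 counts in PS_high libraries, against 113, 134 and 80 in control libraries.

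The libraries carried markers of cortical excitatory neurons and of interneurons. All 10 genes listed for cortical excitatory neurons and all 9 for interneurons reached 1 FPKM. Of 10 markers of striatum, hippocampus, thalamus and olfactory bulb 7 did so too. Their sums were 25.4, 34.6 and 42.6 FPKM in PS_high libraries, against 27.1, 39.7 and 42.1 FPKM in control libraries. This threshold alone therefore does not set cortex apart from other regions. Of 6 markers of choroid plexus and ependyma 3 reached 1 FPKM, with sums of 9.93, 464 and 295 FPKM in PS_high libraries, against 5.95, 179 and 120 FPKM in control libraries. The blood list summed to 85.2 to 253 FPKM in PS_high libraries and 147 to 380 FPKM in control libraries, with Alas2 below 1 FPKM. Of all listed markers, Rorb of excitatory neurons was the only one an antisense transcript overlapped, and the part of these cell types in the antisense counts was not tested.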

How the data were processed

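Total RNA of prefrontal cortex was sequenced in 6 libraries after removal of ribosomal RNA. Per the submitters' processing notes HISAT2, StringTie and TopHat were used; the sources used here do not give their versions, the genome build or the strand setting of the counting. Per the file headers the authors deposited, for each linear transcript, FPKM and an estimated count, and for each circular RNA a count of back-splice reads. All estimated counts were whole numbers, and a count of 0 carried 0.0001 FPKM. A further 6 columns of scaled circular RNA values were not used. Of 945 microRNA rows, 942 had the positions of GRCm38.p6, and coordinates are those of the table.

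Antisense transcripts were paired with annotated rows of the opposite strand by overlap of spans. The estimated counts of all rows with a mean of at least 0.5 FPKM entered a two-sided comparison of PS_high with control in edgeR 4.0.16 under R 4.3.3 (quasi-likelihood test), with TMM factors and Benjamini-Hochberg adjustment over all rows at 0.05. The same fit was run with antisense rows summed by locus, and for sense genes with annotated rows summed by symbol. The script was tested on simulated data. CPM are from edgeR, and SE is derived from its F statistic. DESeq2 1.42.0, limma 3.58.1 on log2(FPKM + 0.1) and on log2(FPKM + 1), other library factors and filters, a replicate block and the omission of each library were the alternatives. No library depth beyond the summed counts is known, and intervals and floors cover counting error only.

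Named transcripts were the 10 of highest mean FPKM, up to 8 in each direction of largest fold change whose groups do not overlap, the 3 of largest span, and the 4 with the highest ratio to sense counts among those with at least 100 counts in sum. The loci and transcripts opposite Nefm, Ubb, Dlg2, Syt1, Pkd2, Tbcd, Trim39, Cacna1c, Rps28, Malat1 and the microRNA genes were named after their values were seen. The members and gene lists were chosen with earlier results of these data known. Some results are not reported here.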

Additional observations from a re-analysis of the deposited data

How the results depend on the processing

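Counts of antisense transcripts past the threshold were 0 under every alternative except DESeq2, which gave 3 transcripts, 2 loci, 3 sense genes and 1 of the named transcripts (MSTRG.39738.2, opposite Ankrd11). The cause of the difference between the tools was not tested. The background of 3 called rows was 0 or 1 when any 1 library was left out. Of 461 recalculated single values of 33 results, 421 kept direction and side of the threshold, 3 in DESeq2 kept direction but were given no p (MSTRG.6816.1, MSTRG.18031.1 and MSTRG.35606.3), and 2 passed it, both in DESeq2 (MSTRG.39738.2 and the Nefm locus). Another 35, of 12 results, changed sign, most of them close to 0. With library totals Klhl11 gave a log2 fold change of -0.0151, and with limma -0.0118 and -0.0116. Gm49356 (MSTRG.13649.1) gave 0.0031 with RLE factors, 0.0072 at a filter of 1 FPKM, 0.0030 with DESeq2 and 0.0064 with the replicate block. Gm38154 gave -0.86 with the replicate block and -0.92 and -0.16 with limma, and Gm25452 (MSTRG.35606.3) gave 0.36 with the block. With each library left out in turn, the log2 fold changes that reversed lay between -0.22 and 0.14 for Vxn, -0.0195 and 0.0448 for Klhl11, -0.00083 and 0.34 for Nrg3, -0.87 and 0.75 for Rb1, -0.0635 and 0.14 for Gm49356, -0.13 and 0.41 for Gm10241, -0.46 and 0.64 for Gm38154, -0.23 and 0.0257 for Gm42946, -0.0780 and 0.26 for Snhg14 (MSTRG.35498.1), -5.67 and 5.57 for MSTRG.35606.3, -0.0824 and 0.25 for MSTRG.35606.4, and -0.14 and 0.17 for the summed locus opposite Ankrd11. Same-numbered libraries deviated together with correlations of 0.0076 to 0.0307, against -0.0258 to 0.0173 for other pairs of a PS_high and a control library. All were close to 0, which cannot decide whether the numbers pair the samples. The fit with the replicate block called 0 transcripts, 0 loci and 0 sense genes.

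The division of reads between overlapping isoforms, snRNA copies and strands limits what a single row can show. For members with fewer than 10 counts in most libraries, counting error alone allows differences of severalfold. The antisense share differed between groups by 1.85 percentage points as means, less than the SD within either group (4.70 in PS_high and 6.53 in control). Its sign and size hung on single libraries: it was -0.0049 without PS_high 1, 4.49 without PS_high 2, 1.05 without PS_high 3, -0.44 without control 1, 5.59 without control 2 and 0.39 without control 3. It was -0.53 without the 3 highest antisense transcripts and 4.63 where only overlaps of at least 50% of the antisense transcript counted. The setting without the 3 highest antisense transcripts was chosen after seeing the data.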

Other observations

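The assembler also placed spliced rows on the sense strand of the snRNA genes on chromosome 1. MSTRG.1045.1 had 0, 0 and 16867 counts in PS_high libraries, against 6752, 0 and 0 in control libraries. MSTRG.1045.3, which begins 4 bases further along and has the same end, had 40949, 0 and 0 counts in PS_high libraries, against 0, 0 and 0 in control libraries.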
